A study of Mus musculus with 10 samples.

Results

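The Fc receptors of myeloid cells bind the constant part of antibodies, and 7 of the 24015 genes in the read count table encode them or the chain they share. The genes are Fcgr1, Fcgr3, Fcgr4, Fcgr2b, Fcer1g, Fcer1a and Fcgrt, taken by symbol from a list of Fc receptors. They were read in every library of a study of MAF9 cells, which are mouse bone marrow cells (C57BL/6) transduced with the MLL-AF9 fusion gene. The study set inhibitors of proteins that act with MLL1 or with the fusion protein beside a solvent control, and measured total RNA by sequencing. The cells grew in IMDM with 15% serum and 10 ng/ml IL-3, and each inhibitor was given for 4 days at its half-maximal inhibitory concentration. MM-401 blocks the contact of MLL1 with WDR5, EPZ5676 inhibits DOT1L, MI-2-2 inhibits MENIN and iBET inhibits BET proteins. Each inhibitor and the solvent control (DMSO) had 2 libraries, 10 in all. The paper's methods for gene expression mention duplicated biological samples, in a paragraph that goes on to real-time PCR. The labels do not say whether the 2 libraries of a group came from separate cultures, so the p-values measure only the spread between these libraries.

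Fcgr1, Fcgr3 and Fcgr4 encode activating receptors for immunoglobulin G, and each needs the Fc receptor gamma chain, encoded by Fcer1g, to signal and to stay at the surface. Fcgr2b encodes the inhibitory receptor, which recruits the lipid phosphatase SHIP1, encoded by Inpp5d. Fcer1a encodes the chain of the immunoglobulin E receptor that binds the antibody, and Fcgrt encodes FcRn, which pairs with B2m and returns immunoglobulin G from inside the cell.

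Reads counted on genes numbered between 20394762 (DMSO replicate 2) and 29473127 (MI-2-2 replicate 2) per library. At these depths 3 reads correspond to between 0.102 and 0.147 CPM, the count scaled to the library total. Levels below are CPM scaled further by TMM, the trimmed mean of M values, and carry an error of 1 SD over 2 libraries. DMSO replicate 2 differed from the other 9 libraries in its sex-linked genes. It held 3630 reads on Uty, Kdm5d, Eif2s3y and Ddx3y of the Y chromosome, where each of the others held 0 to 2. Its Xist level was 4.76 CPM by total reads, against 928 to 3051 in the others. The 2 DMSO libraries lay more than 2-fold apart for 19.3% of genes, against 3.42% to 6.07% in the other groups. By these sex-linked genes DMSO replicate 2 came from male cells and the other 9 libraries from female cells. The 2 DMSO libraries thus did not come from the same cells, and no inhibitor library matched DMSO replicate 2 in sex. Which male cells gave DMSO replicate 2 cannot be told from the table, so the comparisons with DMSO were repeated without either DMSO library. The 4 comparisons share these 2 DMSO libraries, so any error in them enters all 4.

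Per kilobase of exon, Fcer1g was the most abundant of the 7 genes, with a mean of 424 TMM CPM per kilobase over the 10 libraries. It stood above 99.6% of the 12869 tested genes that had a length. Fcgr3 followed at 150 TMM CPM per kilobase, above 98.4% of those genes. Fcgr4 reached 40.2 and Fcgr2b 29.0 TMM CPM per kilobase. These means pool all treatments, and Fcgr4 lay above Fcgr2b only with EPZ5676 and MI-2-2, and below it with DMSO (18.2 against 28.9), MM-401 (25.8 against 30) and iBET (3.85 against 23.4). The order also depends on the length used. By the longest protein-coding transcript, a length chosen after the levels had been seen, Fcgr2b stood at 47.3, above Fcgr4 at 40.2, and with no length at 168 TMM CPM against 50.5. Fcgrt lay far lower, at 5.40 TMM CPM per kilobase, and Fcgr1 at 1.58, though in DMSO replicate 2 Fcgr1 lay above Fcgrt (3.18 against 1.96), and in EPZ5676 replicate 2 the values were 4.60 and 4.50. Fcer1a had no read in any library. Fcgr3 supplied between 63.1% and 80.5% of the per-kilobase signal of the 4 immunoglobulin G receptors in each library. The share of Fcgr4 ran from 2.66% with iBET to 26.3% with MI-2-2. Fcgr2b supplied 8.90% to 18.9%, and Fcgr1 at most 1.74%. These shares too depend on the length, and with no length Fcgr3 supplied 46.2% to 58.5%, Fcgr2b 25.8% to 45%, Fcgr4 1.39% to 16.3% and Fcgr1 at most 1.88%.

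**Figure D1:**
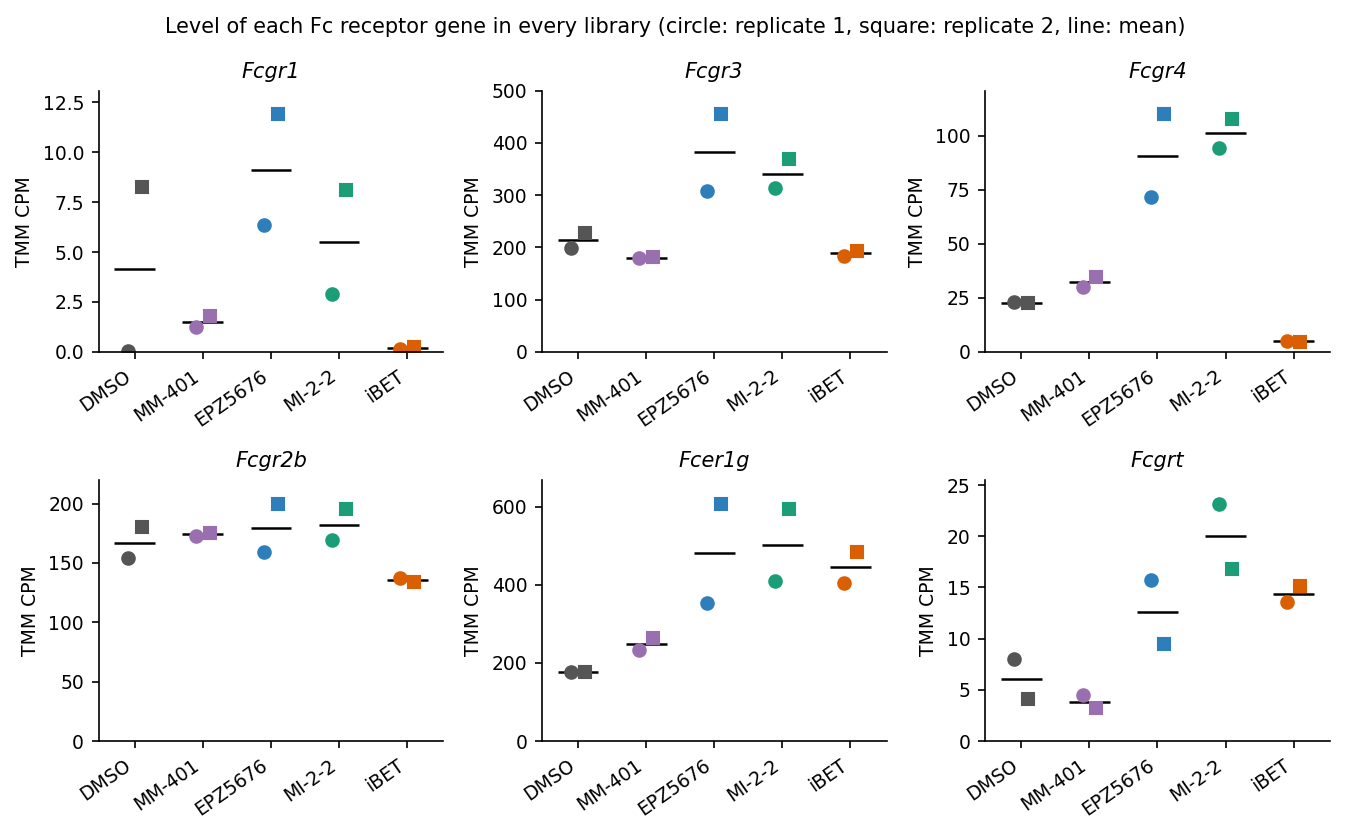
TMM CPM of the 6 Fc receptor genes with reads, 1 panel per gene, by treatment, with a circle for replicate 1, a square for replicate 2 and a line at the mean of the 2 libraries. Fcgr4 ranges from 4.63 with iBET to 110 with EPZ5676, while Fcgr2b stays between 134 and 200.

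The upstream sequences of 5 of these genes are shown because their levels moved in different ways across the treatments. They come from the RefSeq annotation of GRCm38.p6, a later build than the mm9 of the read counts. Each runs from 250 bases before to 50 bases into the gene, read along the gene's strand. Of the 7 genes, 7 had an entry, 8 entries in all, because Fcgr3 has 2 that lie 9 bases apart. Capitals mark matches to 8 short motifs searched on both strands. GAGGAA, which reads TTCCTC on the other strand, is a core of PU.1 sites and occurs in 28.3% of the 32851 promoters of the annotation. TTCNNNGAA, a STAT motif that is its own reverse complement, occurs in 8.30% of them. TTNNGCAA, a C/EBP motif read TTGCNNAA on the other strand, occurs in 10.8%, and GGAAGTG, an ETS motif read CACTTCC on the other strand, in 11%.
Fcgr1 (chr3:96293920-96294219, minus strand): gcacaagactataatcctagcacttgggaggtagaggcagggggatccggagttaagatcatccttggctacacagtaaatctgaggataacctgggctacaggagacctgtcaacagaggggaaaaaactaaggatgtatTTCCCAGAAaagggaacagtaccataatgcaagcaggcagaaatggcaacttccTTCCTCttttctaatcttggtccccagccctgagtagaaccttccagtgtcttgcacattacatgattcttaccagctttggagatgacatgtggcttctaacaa
Fcgr3 (chr1:171059354-171059653, minus strand): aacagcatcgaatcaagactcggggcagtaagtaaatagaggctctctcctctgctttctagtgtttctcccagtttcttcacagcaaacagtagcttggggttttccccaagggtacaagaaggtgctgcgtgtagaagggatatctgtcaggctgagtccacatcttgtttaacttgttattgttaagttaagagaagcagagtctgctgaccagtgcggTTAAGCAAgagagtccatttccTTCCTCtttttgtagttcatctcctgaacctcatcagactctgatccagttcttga
Fcgr4 (chr1:171018676-171018975, plus strand): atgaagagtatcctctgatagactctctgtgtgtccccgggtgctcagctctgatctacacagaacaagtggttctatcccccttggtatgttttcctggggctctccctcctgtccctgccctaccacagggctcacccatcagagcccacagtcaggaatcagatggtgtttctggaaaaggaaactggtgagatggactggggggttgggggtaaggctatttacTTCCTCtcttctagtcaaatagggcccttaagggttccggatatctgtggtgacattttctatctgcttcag
Fcgr2b (chr1:170976022-170976321, minus strand): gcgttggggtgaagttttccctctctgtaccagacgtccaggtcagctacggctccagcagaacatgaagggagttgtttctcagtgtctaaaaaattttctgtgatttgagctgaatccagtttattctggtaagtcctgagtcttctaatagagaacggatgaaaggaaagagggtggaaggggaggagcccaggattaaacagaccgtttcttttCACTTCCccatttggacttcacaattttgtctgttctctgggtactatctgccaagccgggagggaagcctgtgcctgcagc
Fcer1g (chr1:171234300-171234599, minus strand): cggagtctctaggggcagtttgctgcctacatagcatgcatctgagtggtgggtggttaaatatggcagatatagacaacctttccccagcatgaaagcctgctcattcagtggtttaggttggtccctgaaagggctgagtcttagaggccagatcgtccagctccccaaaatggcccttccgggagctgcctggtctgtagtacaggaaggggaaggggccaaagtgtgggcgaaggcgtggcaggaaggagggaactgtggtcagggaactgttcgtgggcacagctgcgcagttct

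The 3 activating receptor genes each carried TTCCTC close to the annotated start, at 55 bases before it in Fcgr1, 6 in Fcgr3 and 22 in Fcgr4. Fcgr2b, Fcer1g and Fcgrt had no match to GAGGAA on either strand. Fcgr1 also matched the STAT motif, as TTCCCAGAA 109 bases before its start, and Fcgr3 the C/EBP motif, as TTAAGCAA 28 bases before. In the second entry of Fcgr3, whose window is not shown, TTCCTC lay 15 and TTAAGCAA 37 bases before the start. The match of Fcgr2b was CACTTCC at 32 bases. Fcer1a, whose window is not shown, matched GAGGAA at 216 bases, the C/EBP motif at 118 and TATAAA, found in 13.6% of promoters, at 125. Fcgrt matched the C/EBP motif at 239 bases. GGGCGG, found in 35.7% of promoters, matched none of the 7 genes, and neither did the E-box CACGTG (7.15%) or the cyclic AMP element TGACGTCA (1.79%). The longest run of bases shared between Fcgr1 and Fcgr3 was 14, ttccTTCCTCtttt. A match describes the sequence only, and binding was not measured.

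Fcgr1, the high-affinity activating receptor, was read least evenly in the control. It had 1 read in DMSO replicate 1 and 172 in DMSO replicate 2. The TMM CPM were 0.0389 and 8.25 with DMSO, 1.23 and 1.81 with MM-401, and 0.133 and 0.268 with iBET. EPZ5676 gave 6.36 and 11.9 TMM CPM, and MI-2-2 gave 2.91 and 8.11. Thus Fcgr1 was low with iBET and MM-401 and high with EPZ5676 and MI-2-2, and the 2 DMSO libraries spanned the values of all the others but EPZ5676 replicate 2. The group means of Fcgr1 were 4.14 ± 5.80 TMM CPM with DMSO, 1.52 ± 0.411 with MM-401, 0.2 ± 0.0956 with iBET, 5.51 ± 3.68 with MI-2-2 and 9.13 ± 3.93 with EPZ5676 (SD, n = 2 each).

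No comparison of Fcgr1 with DMSO passed the threshold of an edgeR adjusted p of 0.05. Against DMSO its log2 fold change was 1.15 ± 1.32 (SE) with EPZ5676 (edgeR adjusted p 0.517), and the libraries overlapped. MI-2-2 gave 0.42 ± 1.32 (edgeR adjusted p 0.815), MM-401 −1.44 ± 1.38 (edgeR adjusted p 0.748) and iBET −4.30 ± 1.67 (edgeR adjusted p 0.122). With both DMSO libraries DESeq2 called Fcgr1 lower with iBET (−4.39, DESeq2 adjusted p 0.0106), though 1 of the DMSO libraries lay below both iBET libraries. The answer also depended on which DMSO library was kept. Without DMSO replicate 1, Fcgr1 was lower with MM-401 by −2.44 on the log2 scale (edgeR adjusted p 0.0499) and lower with iBET by −5.30 (edgeR adjusted p 0.00295). Without DMSO replicate 2, it was higher with EPZ5676 by 7.71 (edgeR adjusted p 0.00313) and higher with MI-2-2 by 7.0 (edgeR adjusted p 0.00427). Over all alternatives the edgeR or DESeq2 adjusted p of Fcgr1 ran from 0.0499 to 1 with MM-401, 0.00313 to 0.853 with EPZ5676, 0.00427 to 0.882 with MI-2-2 and 0.00295 to 0.378 with iBET. A lone DMSO library is assumed in these fits to vary like the other groups.

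By TMM CPM, DMSO replicate 2 held 212 times as much Fcgr1 as DMSO replicate 1. The exact 95% binomial interval, from 172 reads against 1, was 37.5 to 8412. Against DMSO replicate 1 the ratio was 39.0 with MM-401 (6.77 to 1560), 236 with EPZ5676 (42.0 to 9330), 147 with MI-2-2 (26.2 to 5831) and 5.27 with iBET (0.749 to 229). Against DMSO replicate 2, the ratio for Fcgr1 was 0.184 with MM-401 (0.138 to 0.244) and 1.11 with EPZ5676 (0.927 to 1.34). MI-2-2 gave 0.695 (0.573 to 0.844) and iBET 0.0249 (0.0117 to 0.0469). Such intervals and floors cover counting error only. From low to high, Fcgr1 ran iBET, MM-401, DMSO, MI-2-2, EPZ5676, and no neighbouring groups passed the threshold by edgeR adjusted p (0.310, 0.748, 0.815 and 0.986). Of the pairs of inhibitors, iBET lay below EPZ5676 (log2 fold change −5.45 ± 1.71, edgeR adjusted p 0.0377), with both iBET libraries under both EPZ5676 libraries. That call was lost on leaving out any of the 8 inhibitor libraries, with edgeR adjusted p for Fcgr1 of 0.0626 and 0.0629 without MM-401 replicates 1 and 2, 0.0736 and 0.110 without EPZ5676 replicates 1 and 2, 0.0538 and 0.0544 without MI-2-2 replicates 1 and 2, and 0.174 and 0.160 without iBET replicates 1 and 2. Over all alternatives it ran from 0.000278 to 0.174.

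With 1 DMSO library left out, so that the gap between the DMSO libraries no longer entered the spread of Fcgr1, 4 more pairs passed. EPZ5676 lay above MM-401 in Fcgr1 (edgeR adjusted p 0.00731 without DMSO replicate 1 and 0.00677 without DMSO replicate 2, against 0.188 with both, and 0.00486 to 0.451 over all alternatives). MI-2-2 lay above MM-401 (edgeR adjusted p 0.0253 and 0.0225, against 0.320; 0.0225 to 0.729 over all alternatives). In the same fits Fcgr1 was lower with iBET than with MM-401 (edgeR adjusted p 0.0298 and 0.0274, against 0.310; 0.00643 to 0.635) and than with MI-2-2 (0.0013 and 0.00119, against 0.0567; 0.00119 to 0.220). In each of these 4 pairs the libraries did not overlap, and the log2 fold changes with all 10 libraries were 2.59, 1.86, −2.87 and −4.73.

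Fcgr3, the low-affinity activating receptor, was read at 199 and 228 TMM CPM with DMSO, 180 and 181 with MM-401 and 184 and 194 with iBET. EPZ5676 gave 309 and 455 TMM CPM, and MI-2-2 gave 313 and 369. All 4 libraries with EPZ5676 or MI-2-2 lay above the other 6, in which Fcgr3 varied little. The group means were 213 ± 20.3 with DMSO, 181 ± 1.21 with MM-401, 189 ± 6.94 with iBET, 341 ± 39.0 with MI-2-2 and 382 ± 103 with EPZ5676 (SD, n = 2 each). Fcgr3 rose 1.79-fold with EPZ5676, a log2 fold change of 0.84 ± 0.19 (SE; edgeR adjusted p 0.0106), and was higher in 2 of 2 libraries. It rose 1.60-fold with MI-2-2 (0.68 ± 0.19, edgeR adjusted p 0.0220), also in 2 of 2. With MM-401 (−0.24 ± 0.19, edgeR adjusted p 0.682) and iBET (−0.18 ± 0.19, edgeR adjusted p 0.548) both libraries lay below DMSO, and neither difference passed the threshold.

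The Fcgr3 calls rested on few libraries. For EPZ5676 the call was lost without EPZ5676 replicate 2 (edgeR adjusted p 0.0527; 0.000135 to 0.0981 over all alternatives). For MI-2-2 it was lost without DMSO replicate 1 (0.0567) or MI-2-2 replicate 2 (0.123), with edgeR or DESeq2 adjusted p from 0.00212 to 0.123 over all alternatives. Without DMSO replicate 2 both Fcgr3 calls held. In order, Fcgr3 ran MM-401, iBET, DMSO, MI-2-2, EPZ5676. By edgeR adjusted p, only the step from DMSO to MI-2-2 (0.0220) passed, and the steps from MM-401 to iBET (0.863), iBET to DMSO (0.548) and MI-2-2 to EPZ5676 (0.961) did not.

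Fcgr3 also differed between inhibitors. It was higher with EPZ5676 than with MM-401 (log2 fold change 1.08, edgeR adjusted p 0.00492) and lower with iBET than with EPZ5676 (−1.02, edgeR adjusted p 0.00480), with no overlap of libraries in either. It was higher with MI-2-2 than with MM-401 (0.92, edgeR adjusted p 0.00823), a call lost without MM-401 replicate 1 (0.0599), MM-401 replicate 2 (0.0612) or MI-2-2 replicate 2 (0.0558; 3.43e-05 to 0.0612 over all alternatives). It was lower with iBET than with MI-2-2 (−0.85, edgeR adjusted p 0.00989), lost without MI-2-2 replicate 2 (0.0617), iBET replicate 1 (0.0640) or iBET replicate 2 (0.0607; 7.37e-05 to 0.0640 over all alternatives). The transcripts of Fcgr3 and Fcgr2b share sequence. Of the 1627 stretches of 50 bases in Fcgr3, 166 (10.2%) also occur in Fcgr2b, so some reads could have been given to either gene or dropped. The authors' processing notes do not state how reads with several hits were counted.

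Fcgr4, an activating receptor of intermediate affinity, spread more widely across the treatments. It stood at 22.9 and 22.7 TMM CPM with DMSO, and at 30.1 and 34.6 with MM-401. EPZ5676 gave 71.8 and 110, MI-2-2 gave 94.3 and 108, and iBET gave 5.04 and 4.63. Fcgr4 was therefore high with EPZ5676 and MI-2-2, which overlapped each other, intermediate with MM-401 and DMSO, and low with iBET, with no overlap between those 3 levels. The group means were 22.8 ± 0.184 with DMSO, 32.4 ± 3.17 with MM-401, 4.83 ± 0.289 with iBET, 101 ± 9.95 with MI-2-2 and 91.1 ± 27.2 with EPZ5676 (TMM CPM, SD, n = 2 each). The 2 DMSO libraries, so far apart in their sex-linked genes, differed by 1.01-fold in Fcgr4.

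Fcgr4 rose 3.99-fold with EPZ5676, a log2 fold change of 2.00 ± 0.21 (SE; edgeR adjusted p 0.000703), in 2 of 2 libraries. It rose 4.44-fold with MI-2-2 (2.15 ± 0.21, edgeR adjusted p 0.000610), in 2 of 2. With iBET Fcgr4 moved the other way and was 4.72-fold lower (−2.24 ± 0.22, edgeR adjusted p 0.00211), in 2 of 2. With MM-401 both libraries lay above DMSO (0.51 ± 0.20), but the difference did not pass (unadjusted p 0.0361, edgeR adjusted p 0.410). The calls for EPZ5676 and MI-2-2 held in all 18 alternatives, including those without either DMSO library. For iBET 17 of 18 kept the call, and the exception was a separate fit of iBET and DMSO (edgeR adjusted p 0.0834; 8.75e-17 to 0.0834 over all alternatives).

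In order, Fcgr4 ran iBET, DMSO, MM-401, EPZ5676, MI-2-2. The steps from iBET to DMSO (edgeR adjusted p 0.00211) and from MM-401 to EPZ5676 (edgeR adjusted p 0.00218) passed, and those from DMSO to MM-401 (0.410) and from EPZ5676 to MI-2-2 (0.964) did not. Between inhibitors, Fcgr4 was 18.8-fold lower with iBET than with EPZ5676 (log2 fold change −4.24, edgeR adjusted p 5.2e-05) and 20.9-fold lower than with MI-2-2 (−4.39, edgeR adjusted p 6.18e-05). It was also 6.70-fold lower with iBET than with MM-401 (−2.74, edgeR adjusted p 0.000846). Against MM-401, Fcgr4 was higher with EPZ5676 (1.49, edgeR adjusted p 0.00218) and with MI-2-2 (1.65, edgeR adjusted p 0.00175). The libraries did not overlap in any of these 5 pairs, and each call held whichever library was left out.

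Fcgr2b, the inhibitory receptor, moved least. It was read at 154 and 180 TMM CPM with DMSO, 173 and 175 with MM-401, 159 and 200 with EPZ5676, 169 and 195 with MI-2-2, and 137 and 134 with iBET. The iBET libraries were the lowest, and the other 8 overlapped. The group means of Fcgr2b were 167 ± 18.3 with DMSO, 174 ± 1.57 with MM-401, 135 ± 1.79 with iBET, 182 ± 18.5 with MI-2-2 and 180 ± 29.5 with EPZ5676 (TMM CPM, SD, n = 2 each). No comparison of Fcgr2b with DMSO passed. The log2 fold change was 0.06 ± 0.15 (SE) with MM-401 (edgeR adjusted p 0.924), −0.31 ± 0.15 with iBET (0.189), 0.12 ± 0.15 with MI-2-2 (0.528) and 0.10 ± 0.15 with EPZ5676 (0.607). Scaled by total reads in place of TMM, the Fcgr2b values for EPZ5676 and MI-2-2 changed sign, to −0.07 and −0.03. A p-value above the threshold does not show that the Fcgr2b levels were equal.

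The levels of Fcgr2b ran iBET, DMSO, MM-401, EPZ5676, MI-2-2, and no neighbouring groups passed the threshold (edgeR adjusted p 0.189, 0.924, 0.829 and 0.996). Of the pairs of inhibitors, Fcgr2b was lower with iBET than with MI-2-2 (log2 fold change −0.43 ± 0.15, edgeR adjusted p 0.0488), in 2 of 2 libraries. This call was lost without MM-401 replicate 1 (edgeR adjusted p 0.0869) or 2 (0.0867), MI-2-2 replicate 1 (0.0765) or 2 (0.227), and iBET replicate 1 (0.153) or 2 (0.193), and ran from 0.0139 to 0.227 over all alternatives. Fcgr2b with iBET against EPZ5676 fell short (−0.41, edgeR adjusted p 0.0587). It passed without DMSO replicate 1 (0.0329), DMSO replicate 2 (0.0220) or EPZ5676 replicate 1 (0.0353), within a range of 0.0197 to 0.296 over all alternatives.

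Fcer1g, the shared gamma chain, was read at 176 TMM CPM in each DMSO library. It stood at 232 and 264 with MM-401, 354 and 608 with EPZ5676, 409 and 595 with MI-2-2, and 404 and 485 with iBET. Every treated library lay above DMSO, and the EPZ5676, MI-2-2 and iBET libraries, which overlapped one another, lay above MM-401. The group means of Fcer1g were 176 ± 0.454 with DMSO, 248 ± 22.4 with MM-401, 445 ± 57.6 with iBET, 502 ± 131 with MI-2-2 and 481 ± 179 with EPZ5676 (TMM CPM, SD, n = 2 each). Fcer1g rose 2.74-fold with EPZ5676 (log2 fold change 1.45 ± 0.27 (SE), edgeR adjusted p 0.00555) and 2.85-fold with MI-2-2 (1.51 ± 0.28, edgeR adjusted p 0.00439). With iBET it rose 2.53-fold (1.34 ± 0.27, edgeR adjusted p 0.0196). Each rise was seen in 2 of 2 libraries. The 1.41-fold difference with MM-401 (0.50 ± 0.27, edgeR adjusted p 0.548) did not pass.

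The Fcer1g calls for EPZ5676 and MI-2-2 held in all 18 alternatives. That for iBET was lost without iBET replicate 1 (edgeR adjusted p 0.0785) or iBET replicate 2 (0.121; 5.83e-05 to 0.121 over all alternatives), and held without either DMSO library. In order, Fcer1g ran DMSO, MM-401, iBET, EPZ5676, MI-2-2, and no neighbouring groups passed the threshold (edgeR adjusted p 0.548, 0.0869, 0.768 and 0.993). For iBET against MM-401, whose libraries did not overlap, Fcer1g passed by DESeq2 (adjusted p 0.0254) and in an edgeR fit of only these groups (adjusted p 0.00391; 0.00391 to 0.348 over all alternatives). Between inhibitors, Fcer1g was higher with EPZ5676 than with MM-401 (log2 fold change 0.95, edgeR adjusted p 0.0301), a call lost without MM-401 replicate 1 (0.158), MM-401 replicate 2 (0.110) or EPZ5676 replicate 2 (0.174; 0.00218 to 0.174 over all alternatives). Fcer1g was also higher with MI-2-2 than with MM-401 (1.02, edgeR adjusted p 0.0227), lost without MM-401 replicate 1 (0.129), MM-401 replicate 2 (0.0924) or MI-2-2 replicate 2 (0.137; 0.000966 to 0.137 over all alternatives).

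Fcer1a, the antibody-binding chain of the immunoglobulin E receptor, had 0 reads in all 10 libraries and was not tested. Against 235254628 reads in all, a count of 0 allows up to 3 reads, or 0.0128 CPM. Its partner Ms4a2, the beta chain of the same receptor, did have reads, at 8.72 and 3.21 TMM CPM with DMSO, 9.30 and 9.29 with MM-401, 3.98 and 3.72 with EPZ5676, 5.38 and 4.57 with MI-2-2, and 2.92 and 2.41 with iBET. Ms4a2 passed no comparison with both DMSO libraries by edgeR. Without DMSO replicate 1 it was higher with MM-401 (1.53, edgeR adjusted p 0.0141), and without DMSO replicate 2 it was lower with EPZ5676 (−1.15, edgeR adjusted p 0.00975), MI-2-2 (−0.78, edgeR adjusted p 0.0378) and iBET (−1.71, edgeR adjusted p 0.00534), so the 2 DMSO libraries gave different answers for Ms4a2. The gamma chain partner Fcer1g was thus abundant, and Ms4a2 low but present, where Fcer1a gave no read.

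Fcgrt, which encodes FcRn, was read at 7.98 and 4.12 TMM CPM with DMSO and 4.48 and 3.24 with MM-401. EPZ5676 gave 15.7 and 9.46, MI-2-2 gave 23.2 and 16.8, and iBET gave 13.6 and 15.1. Fcgrt was highest with MI-2-2 and lowest with MM-401, whose libraries overlapped those of DMSO, and all 6 libraries with the other 3 inhibitors lay above DMSO. The group means of Fcgrt were 6.05 ± 2.73 with DMSO, 3.86 ± 0.881 with MM-401, 14.4 ± 1.06 with iBET, 20 ± 4.52 with MI-2-2 and 12.6 ± 4.39 with EPZ5676 (TMM CPM, SD, n = 2 each). Fcgrt rose 3.28-fold with MI-2-2 (log2 fold change 1.72 ± 0.38 (SE), edgeR adjusted p 0.00942), in 2 of 2 libraries. The 2.07-fold difference with EPZ5676 (1.05 ± 0.38, edgeR adjusted p 0.0599) and the 2.37-fold difference with iBET (1.24 ± 0.38, edgeR adjusted p 0.0659) did not pass by edgeR without a block. Both passed by DESeq2 (adjusted p 0.0211 and 0.0173) and by edgeR with the replicate number as a block. MM-401 gave −0.65 ± 0.38 (edgeR adjusted p 0.582).

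Without DMSO replicate 1, Fcgrt passed with EPZ5676 (log2 fold change 1.61, edgeR adjusted p 0.0111; 0.0111 to 0.3 over all alternatives) and with iBET (1.81, edgeR adjusted p 0.0137; 0.0137 to 0.237). Without DMSO replicate 2 neither passed, at 0.68 with EPZ5676 (edgeR adjusted p 0.181) and 0.85 with iBET (edgeR adjusted p 0.133). The MI-2-2 call held without DMSO replicate 1 (2.28, edgeR adjusted p 0.00247) and without DMSO replicate 2 (1.36, edgeR adjusted p 0.0257). It was lost without MI-2-2 replicate 1 (1.47, edgeR adjusted p 0.0540; 8.36e-05 to 0.0691 over all alternatives). The levels of Fcgrt ran MM-401, DMSO, EPZ5676, iBET, MI-2-2, and no neighbouring groups passed the threshold (edgeR adjusted p 0.582, 0.0599, 0.710 and 0.335). Against MM-401, Fcgrt was higher with MI-2-2 (2.37, edgeR adjusted p 0.00401), whichever library was left out. Against MM-401 it was also higher with EPZ5676 (1.70, edgeR adjusted p 0.0133), lost without MM-401 replicate 1 (0.0570), MM-401 replicate 2 (0.102) or EPZ5676 replicate 1 (0.0771; 0.000172 to 0.102 over all alternatives). With iBET Fcgrt was higher than with MM-401 (1.90, edgeR adjusted p 0.0218), lost without MM-401 replicate 1 (0.101) or 2 (0.166) and iBET replicate 1 (0.0982) or 2 (0.117; 0.000107 to 0.166 over all alternatives). Its partner B2m rose 1.96-fold with EPZ5676 (0.97, edgeR adjusted p 0.00720), 1.77-fold with MI-2-2 (0.83, edgeR adjusted p 0.0123) and 1.98-fold with iBET (0.98, edgeR adjusted p 0.0187), each in 2 of 2 libraries, and these 3 calls held without either DMSO library.

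**Figure D2:**
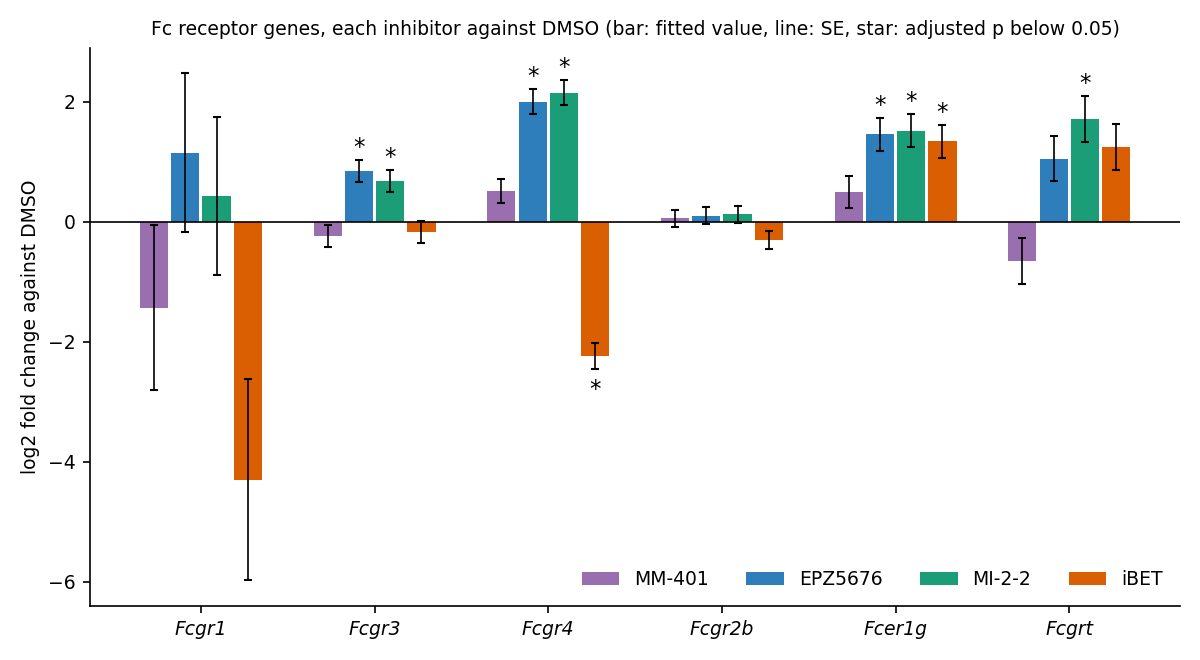
Log2 fold change against DMSO, with its standard error, of the 6 tested Fc receptor genes, with 1 bar per inhibitor and a star where the edgeR adjusted p is below 0.05. Fcgr4 lies at 2.00 and 2.15 with EPZ5676 and MI-2-2 and at −2.24 with iBET, and Fcgr2b lies near 0 in all but iBET.

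Of the 7 genes, 6 passed the expression filter, and their counts are set against all genes tested. With EPZ5676, 3 of the 6 passed (Fcgr3, Fcgr4 and Fcer1g), where 38.1% of the 12971 genes tested did. All 3 were higher, against 18.7% of genes higher and 19.4% lower. With MI-2-2, 4 of 6 passed and were higher, the same 3 and Fcgrt, where 41.4% of genes did (20.2% higher, 21.2% lower). With iBET, 2 of 6 passed, Fcer1g higher and Fcgr4 lower, where 13.9% of genes did (6.38% higher, 7.54% lower). With MM-401, 0 of 6 passed by edgeR, where 0% of genes did. At an unadjusted p below 0.05, 1 of the 6 (Fcgr4) and 1450 genes did, and DESeq2 called 0 of the 6 and 297 genes. The 6 genes are too few to set against these shares.

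These counts moved with the DMSO libraries. Without DMSO replicate 1, 1 of 6 passed with MM-401 (Fcgr1, lower), where 10.2% of genes did, and 4 of 6 with EPZ5676 (Fcgrt added), where 51.0% did. Without it, 3 of 6 passed with MI-2-2 (Fcgr3 lost; 53.9% of genes) and 4 of 6 with iBET (Fcgr1 lower and Fcgrt higher added; 27.9%). Without DMSO replicate 2, 0 of 6 passed with MM-401 (0% of genes), 4 with EPZ5676 (Fcgr1 added; 35.5%), 5 with MI-2-2 (Fcgr1 added; 37.6%) and 2 with iBET (21.6%). Among all genes, other libraries mattered too. The EPZ5676 count of 4942 fell to 2639 without EPZ5676 replicate 2. The MI-2-2 count of 5373 fell to 3507 without MI-2-2 replicate 1 and 2772 without MI-2-2 replicate 2. The iBET count of 1806 fell to 976 and 979 without MM-401 replicates 1 and 2, and to 262 and 150 without iBET replicates 1 and 2.

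Scaling mattered to the split of all genes by direction. Under TMM 2430 genes were higher and 2512 lower with EPZ5676, and 2626 higher and 2747 lower with MI-2-2. Scaled by total reads, these became 1930 higher and 3631 lower with EPZ5676, and 2156 higher and 3659 lower with MI-2-2. The median log2 fold change of all genes moved from −0.0577 to −0.227 with EPZ5676 and from −0.0536 to −0.205 with MI-2-2. The median of the 6 Fc receptor genes under TMM was 1.1 with EPZ5676, 1.09 with MI-2-2, −0.242 with iBET and −0.0928 with MM-401. The last 2 turned to 0.384 and 0.317 without DMSO replicate 2, so their sign depends on that library. Against DMSO, only Fcgr2b of these genes changed direction with the scaling, with EPZ5676 and with MI-2-2. Fewer cells with a transcript and less RNA of it per cell cannot be told apart in bulk RNA.

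The pairs of inhibitors use no DMSO library in the contrast. EPZ5676 and MI-2-2 each differed from MM-401 in 4 of 6 genes (Fcgr3, Fcgr4, Fcer1g and Fcgrt), where 33.3% and 35.7% of genes did. With iBET against MM-401 2 of 6 differed (Fcgr4 and Fcgrt), where 11.4% of genes did. With iBET against EPZ5676 3 of 6 differed (Fcgr1, Fcgr3 and Fcgr4; 37.6% of genes), and against MI-2-2 also 3 (Fcgr3, Fcgr4 and Fcgr2b; 38.8%). Between MI-2-2 and EPZ5676, 0 of 6 differed by edgeR, 0 at an unadjusted p below 0.05 and 0 by DESeq2, where edgeR called 0.0154% of genes. A p-value above the threshold does not show that MI-2-2 and EPZ5676 acted alike on these genes. Over the 6 pairs, 16 of 36 tests of Fc receptor genes passed, against 26.1% of 77826 tests of all genes. The 36 tests reuse the same 6 genes and the same inhibitor libraries, so they are not independent. On leaving out 1 library in turn the 16 became 9 without MM-401 replicate 1 and 21 without DMSO replicate 1.

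Ratios between genes within a library need no scaling between libraries. Per kilobase, Fcgr3 over Fcgr2b was 4.30 and 4.21 with DMSO, 3.47 and 3.46 with MM-401, 6.49 and 7.57 with EPZ5676, 6.18 and 6.30 with MI-2-2, and 4.49 and 4.82 with iBET. Relative to the DMSO mean this activating to inhibitory ratio was 1.65 ± 0.179 with EPZ5676, 1.47 ± 0.0192 with MI-2-2, 1.09 ± 0.0547 with iBET and 0.814 ± 0.00188 with MM-401 (SD, n = 2 each). No groups overlapped in this ratio. Per kilobase, Fcgr4 over Fcgr2b was 0.684 and 0.580 with DMSO, 0.804 and 0.912 with MM-401, 2.09 and 2.54 with EPZ5676, 2.57 and 2.56 with MI-2-2, and 0.170 and 0.159 with iBET. Its mean over that of DMSO was 3.66 ± 0.505 with EPZ5676, 4.06 ± 0.0132 with MI-2-2, 1.36 ± 0.121 with MM-401 and 0.261 ± 0.0121 with iBET. The ratios themselves depend on the length used, while those relative to the DMSO mean moved by less than 1 SD with either other length. With DMSO replicate 1 or 2 left out of that mean, Fcgr4 over Fcgr2b was 4.42 or 3.75 with MI-2-2, 3.99 or 3.38 with EPZ5676, 1.48 or 1.25 with MM-401 and 0.284 or 0.241 with iBET. By the longest transcript, a length chosen after the data had been seen, Fcgr4 over Fcgr2b was 0.419 and 0.355 with DMSO, 1.28 and 1.55 with EPZ5676 and 1.57 and 1.57 with MI-2-2. As read counts with no length it was above 1 in no library, and highest at 0.558. Fcgr3 over Fcgr2b with DMSO was 1.29 and 1.26 by read counts and 3.39 and 3.32 by the longest transcript.

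The gamma chain was compared with the receptors that need it. Per kilobase, Fcer1g over the sum of Fcgr1, Fcgr3, Fcgr4 and Fcer1a was 1.51 and 1.32 with DMSO, 2.08 and 2.28 with MM-401, 1.71 and 1.96 with EPZ5676, 1.82 and 2.26 with MI-2-2, and 4.21 and 4.82 with iBET. Both iBET libraries lay above the other 8. As read counts with no length the Fcer1g ratio was below 1 in both DMSO libraries (0.791 and 0.681), in EPZ5676 replicate 1 (0.915) and in MI-2-2 replicate 1 (0.996), and above 1 in the other 6, with 2.14 and 2.45 with iBET. Relative to the DMSO mean the Fcer1g ratio was 3.18 ± 0.306 with iBET, 1.54 ± 0.0991 with MM-401, 1.44 ± 0.216 with MI-2-2 and 1.29 ± 0.127 with EPZ5676 (SD, n = 2 each). It was 3.41 or 2.99 with iBET without DMSO replicate 1 or 2. With 2 libraries against 2, an exact two-sided permutation test can give no p smaller than 1 in 3, so the ratios are given without a test.

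**Figure D3:**
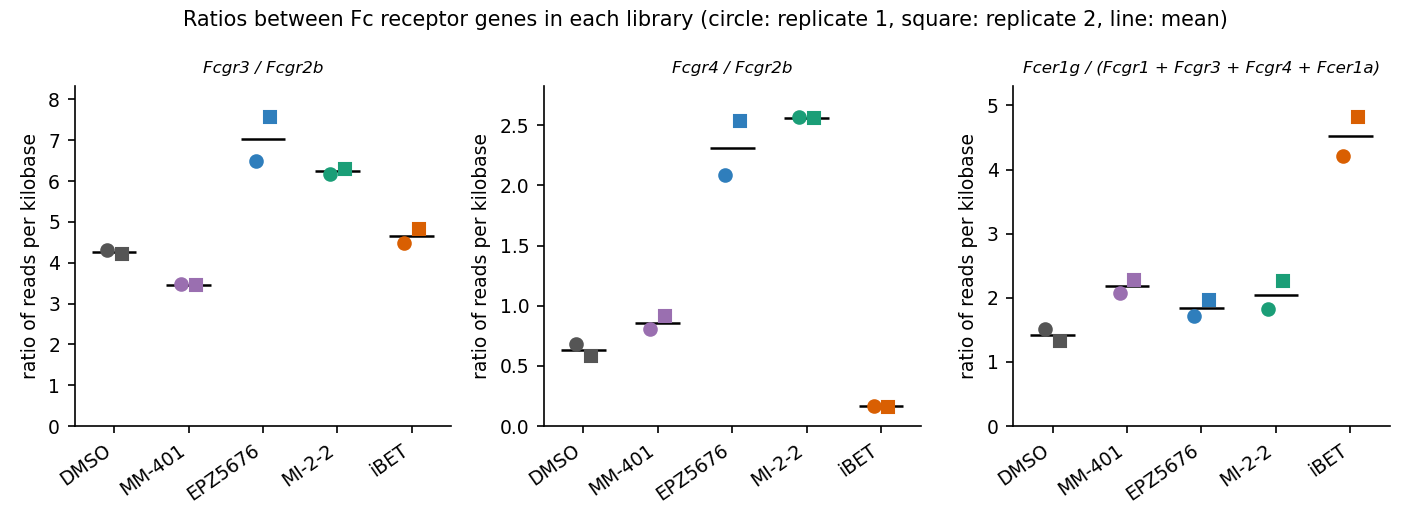
Ratios between Fc receptor genes per kilobase of exon within each library, by treatment, with a circle for replicate 1, a square for replicate 2 and a line at the mean. Fcgr4 over Fcgr2b reaches 2.57 with MI-2-2 and 0.159 with iBET, and Fcer1g over its receptors reaches 4.82 with iBET.

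Across the 10 libraries the Fc receptor genes did not all follow 1 pattern. As a measure of likeness, the Pearson correlation of log2 TMM CPM was 0.786 between Fcgr3 and Fcgr4, 0.836 between Fcgr4 and Fcgr2b, and 0.810 between Fcgr1 and Fcgr2b. Fcgr1 reached 0.764 with Fcgr4 and 0.741 with Fcgr3. Fcer1g was more like Fcgrt (0.690) and Fcgr3 (0.631) than Fcgr4 (0.224). With iBET Fcer1g was higher than with DMSO and Fcgr4 lower. Fcgr2b and Fcgrt gave −0.276.

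Fcgr4 was most like Cebpe (0.989), which encodes a transcription factor of granulocyte maturation, Pilra (0.988), an inhibitory receptor, and Cd84 (0.987), a receptor of the SLAM family, among 9940 genes compared. Cebpe stood at 107 and 108 TMM CPM with DMSO, 132 and 153 with MM-401, 315 and 461 with EPZ5676, 309 and 309 with MI-2-2, and 31.3 and 19.5 with iBET. Cd84 stood at 25.6 and 25.9 TMM CPM with DMSO, close to Fcgr4, and at 4.38 and 3.75 with iBET. These genes were picked for their likeness in these same libraries, so tests of them would only restate it. Such likeness says nothing of shared function or control.

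**Figure D4:**
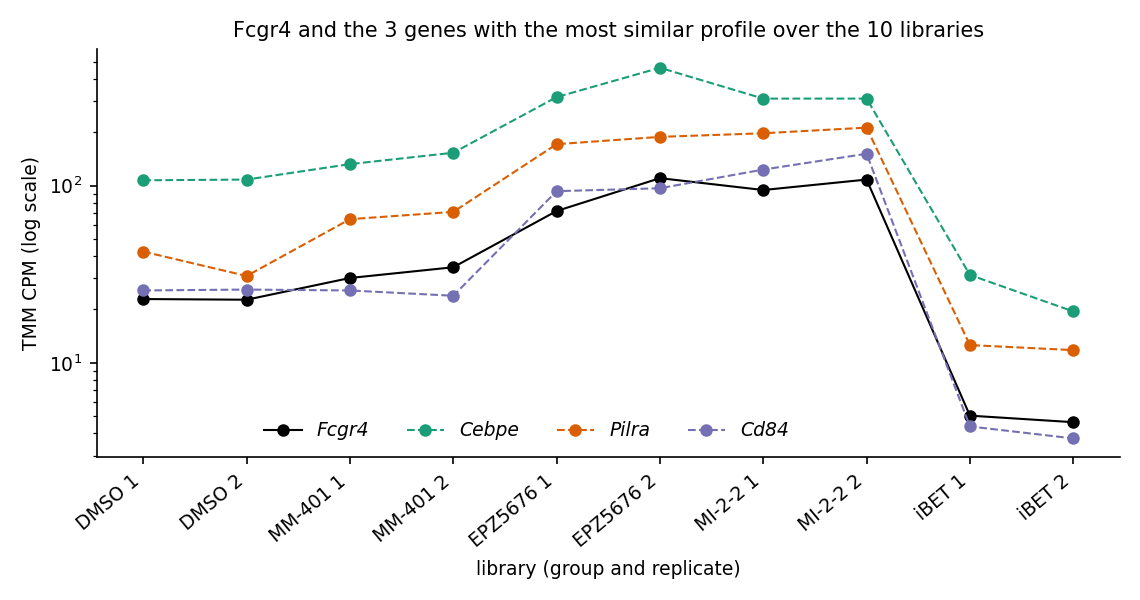
TMM CPM (log axis) of Fcgr4 and of Cebpe, Pilra and Cd84, the 3 genes most like it, in each of the 10 libraries, with lines joining the points of a gene. All 4 are highest with EPZ5676 and MI-2-2 and lowest with iBET, where Fcgr4 falls to 4.63.

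The nearest profiles to the other Fc receptor genes were of varied function. Fcgr3 was most like Fbxo10 (0.984), Srpk2 (0.978) and Cldn1 (0.971). Fcer1g was most like Reep3 (0.983), 3110002H16Rik (0.981) and Vrk3 (0.980). Fcgr1 was most like Nlrp1a (0.968), Traf3 (0.966) and Tnfsf14 (0.965). Nlrp1a shared the gap between the DMSO libraries, at 2.65 and 16.4 TMM CPM. How much this gap weighs in the correlations of Fcgr1 was not tested. Fcgr2b was most like Arhgef18 (0.938), Lrmp (0.923) and Cd180 (0.920). Fcgrt was most like Blvrb (0.980), Tmem184b (0.974) and 4930402H24Rik (0.971).

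The kinases that Fc receptors with the gamma chain engage were set beside them. Lyn, which phosphorylates the chain, rose 2.17-fold with EPZ5676 (log2 fold change 1.12, edgeR adjusted p 0.00146), 2.29-fold with MI-2-2 (1.2, edgeR adjusted p 0.00108) and 1.76-fold with iBET (0.81, edgeR adjusted p 0.0130), as Fcer1g did. Syk, which docks on it, rose 2.30-fold with EPZ5676 (1.2, edgeR adjusted p 0.00149) and 2.28-fold with MI-2-2 (1.19, edgeR adjusted p 0.00141), and the 1.33-fold difference with iBET did not pass (0.41, edgeR adjusted p 0.117). Each difference of Lyn and Syk was seen in 2 of 2 libraries, and no call of theirs was gained or lost without either DMSO library. Of 22 listed kinases and adaptors, 12 were higher with EPZ5676 and 14 with MI-2-2, with median log2 fold changes of 0.854 and 1.03 (18.7% and 20.2% of all genes were higher). With iBET 3 were higher (Lyn, Fyn and Dok1) and 2 lower (Dok2 and Bank1), with a median of 0.237, where 13.9% of all genes passed. These 5 became 10 without DMSO replicate 1 and 0 without either iBET library.

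Downstream enzymes and actin regulators numbered 24. With EPZ5676 13 were higher and 1 (Vav2) lower, and with MI-2-2 14 were higher, with medians of 0.581 and 0.552. With iBET 5 were higher (Plcg2, Pik3cd, Pik3ap1, Rac1 and Prkcd), with a median of 0.375. Of all genes 18.7%, 20.2% and 6.38% were higher in these 3 comparisons. The 5 with iBET became 8 without either DMSO library, 3 without either MM-401 library and 0 without either iBET library. Pik3r5, a subunit of phosphoinositide 3-kinase gamma, rose 8.24-fold with EPZ5676 (log2 fold change 3.04, edgeR adjusted p 0.000685) and 8.86-fold with MI-2-2 (3.15, edgeR adjusted p 0.000621), in 2 of 2 libraries each. Gsn, which severs actin, rose 3.12-fold with EPZ5676 (1.64, edgeR adjusted p 0.00149) and Myo1f, a myosin, 2.96-fold (1.57, edgeR adjusted p 0.00188), in 2 of 2 libraries each. These calls of Pik3r5, Gsn and Myo1f held without either DMSO library. Rac2 was the most abundant by TMM CPM, at 868 and 748 with DMSO and 1583 and 1953 with EPZ5676.

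Inhibitors of Fc receptor signalling were read beside Fcgr2b. Inpp5d, which Fcgr2b recruits, passed no comparison with both DMSO libraries. Its log2 fold change was 0.05 with EPZ5676 (edgeR adjusted p 0.870), 0.24 with MI-2-2 (edgeR adjusted p 0.354) and 0.20 with iBET (edgeR adjusted p 0.513). Without DMSO replicate 2 Inpp5d passed as higher with EPZ5676 (0.43, edgeR adjusted p 0.0324), MI-2-2 (0.64, edgeR adjusted p 0.00757) and iBET (0.56, edgeR adjusted p 0.0210), and without DMSO replicate 1 it passed with none (−0.24, −0.04 and −0.08). Ptpn6, a tyrosine phosphatase of other inhibitory receptors, rose 1.65-fold with EPZ5676 (0.72, edgeR adjusted p 0.00842) and 1.67-fold with MI-2-2 (0.74, edgeR adjusted p 0.00703), in 2 of 2 libraries each. Of the 18 listed inhibitors, 11 were higher and 1 (Pecam1) lower with EPZ5676, and 10 were higher and 1 (Pecam1) lower with MI-2-2, with medians of 0.763 and 0.748. Pirb, an inhibitory receptor, rose 12.1-fold with EPZ5676 (3.60, edgeR adjusted p 0.000799) and 17-fold with MI-2-2 (4.09, edgeR adjusted p 0.000610), in 2 of 2 libraries each. Sirpa, Siglece and Ceacam1 rose 3.90-fold, 9.69-fold and 5.69-fold with EPZ5676. The calls of Ptpn6, Pirb, Sirpa, Siglece and Ceacam1 with EPZ5676 held without either DMSO library, as did those of Ptpn6 and Pirb with MI-2-2. With iBET 3 were higher (Inpp5b, Pirb and Sirpa) and 3 lower (Siglece, Pecam1 and Lair1), with a median of 0.368. Of all genes 38.1%, 41.4% and 13.9% passed in these 3 comparisons. The iBET median was 0.191 without DMSO replicate 1. The 6 with iBET became 3 without either MM-401 library, 2 without iBET replicate 1 and 1 without iBET replicate 2. Thus several inhibitory receptors rose with EPZ5676 and MI-2-2 where Fcgr2b did not pass.

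Other receptors that pair with the gamma chain of Fcer1g, or with its relative DAP12 encoded by Tyrobp, were read next. Tyrobp rose 3.34-fold with EPZ5676 (log2 fold change 1.74, edgeR adjusted p 0.00287) and 3.17-fold with MI-2-2 (1.67, edgeR adjusted p 0.00314), in 2 of 2 libraries each. With iBET Tyrobp did not pass (0.72, edgeR adjusted p 0.112), but it did without DMSO replicate 1 (1.09, edgeR adjusted p 0.0239), and not without DMSO replicate 2 (0.43, edgeR adjusted p 0.252). Of 27 listed symbols 24 were in the table and 16 were tested, and Gp6, Ncr1, Pira1, Pira4, Pira7 and Pira11 had no reads. With EPZ5676 13 were higher and with MI-2-2 15, where 18.7% and 20.2% of all genes were, with medians of 2.22 and 2.55. These counts and medians include Sirpb1b, with 3 reads over the DMSO libraries, 3 with MM-401 and 0 with iBET. It passed the filter only through EPZ5676 and MI-2-2, so its calls there were partly fixed in advance. The same may hold for Pira6, with 5 reads in each DMSO library. The 13 became 8 without EPZ5676 replicate 2, and the 15 became 7 without MI-2-2 replicate 2. With iBET 3 were lower (Clec4a2, Trem1 and Trem3), where 7.54% of all genes were, with a median of −1.01. The 3 became 6 and 7 without DMSO replicates 1 and 2, 1 without iBET replicate 1 and 0 without iBET replicate 2. That median rests on fitted values, and it was −0.53 with Sirpb1a, which had no read with iBET, at its bound of 3 reads over the group and Sirpb1b, at 3 reads or fewer in both groups, left out. The fitted median was −0.39 without DMSO replicate 1. Clec4n, encoding dectin-2, which signals through the gamma chain, rose 38.4-fold with EPZ5676 (5.26, edgeR adjusted p 0.00102) and 40.2-fold with MI-2-2 (5.33, edgeR adjusted p 0.000923), in 2 of 2 libraries each. Trem1 and Trem2, which pair with DAP12, rose 5.95-fold and 20.9-fold with EPZ5676, and Pira6, a partner of the gamma chain, 20.3-fold. With DMSO Trem2 had only 25 and 19 reads, and Pira6 stood at 0.195 and 0.24 TMM CPM, so the size of these 2 folds is uncertain. These calls of Tyrobp, Clec4n, Trem1, Trem2 and Pira6 held without either DMSO library.

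Other Fc receptors were scarce. Of 13 listed with the FcRn partner B2m, 5 were tested, and Fcamr, Pigr, Faim3 and Fcrl6 had no reads. B2m was higher with EPZ5676, and Trim21, which binds antibody inside the cell, was higher with B2m both with MI-2-2 (1.58-fold, edgeR adjusted p 0.0133) and with iBET (2.20-fold, edgeR adjusted p 0.00666), in 2 of 2 libraries each. The 2 calls of Trim21 held without either DMSO library, and without DMSO replicate 1 it also passed with EPZ5676 (0.54, edgeR adjusted p 0.0261). The medians were 0.971, 0.659 and −1.09 with EPZ5676, MI-2-2 and iBET. The EPZ5676 median was 0.541 without DMSO replicate 1, and the iBET median −0.266 and 0.762 without DMSO replicates 1 and 2, so its sign is not settled. Of all genes 38.1%, 41.4% and 13.9% passed. The 1 with EPZ5676 became 2 without either DMSO library, the 2 with MI-2-2 became 1 without either MI-2-2 library, and the 2 with iBET became 0 without either iBET library. Fcrls, a receptor-like gene, did not pass and stayed at or below 1.08 TMM CPM. For comparison, the medians of all genes tested were −0.0577, −0.0536 and −0.0353 with these inhibitors.

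**Figure D5:**
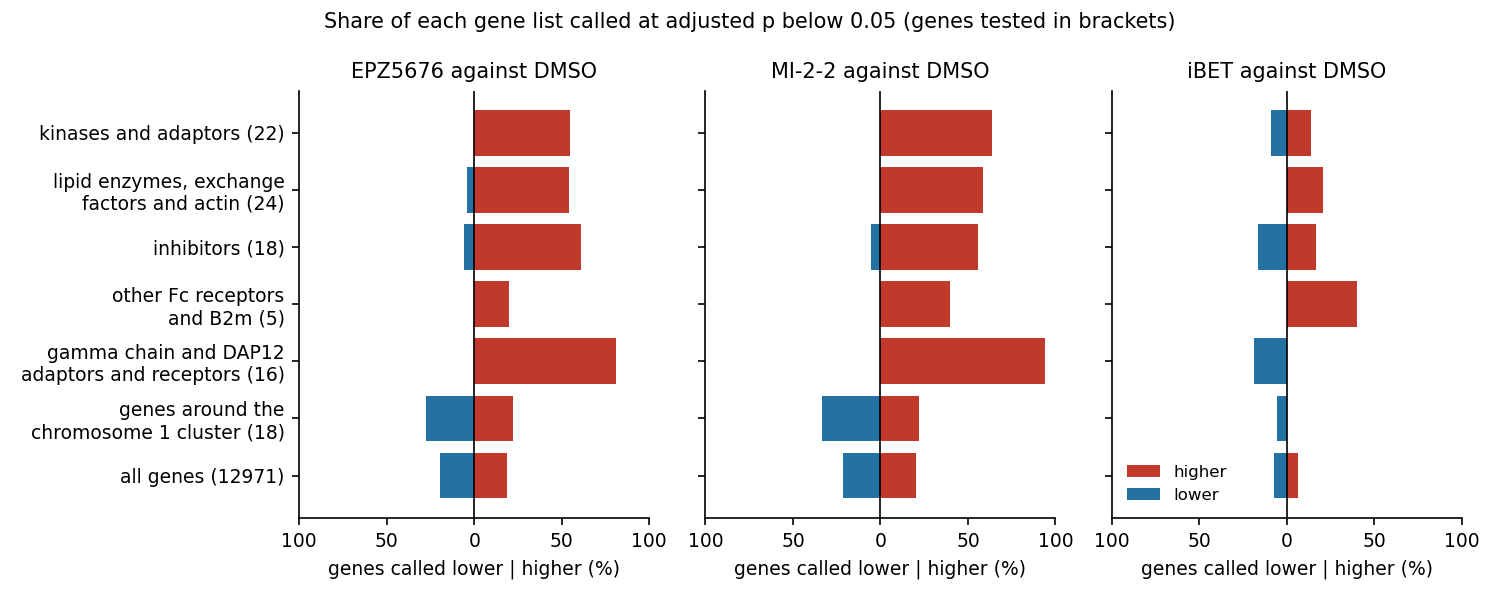
Share (percent) of the tested genes of each list that were higher (right) or lower (left) than with DMSO at an edgeR adjusted p below 0.05, 1 panel per inhibitor, with all genes in the lowest bars. Of the 16 partner receptors and adaptors 13 were higher with EPZ5676 and 15 with MI-2-2, and 3 were lower with iBET. Sirpb1b, counted as higher, passed the filter only through EPZ5676 and MI-2-2.

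In the RefSeq annotation of GRCm38.p6, Fcgr2b, Fcgr4 and Fcgr3 lie side by side on chromosome 1, and Fcer1g lies on the same chromosome. Of 18 tested genes around this cluster, 4 were higher (B4galt3, Ppox, Arhgap30 and F11r) and 5 lower (Dusp12, Sdhc, Tomm40l, Ufc1 and Pfdn2) with EPZ5676, with a median of −0.456, where 18.7% of all genes were higher and 19.4% lower. With MI-2-2 4 were higher and 6 lower (median −0.333), where 20.2% and 21.2% of all genes were. With iBET 1, Tomm40l, was lower (median −0.173), where 7.54% of all genes were. The medians were −0.229, −0.0962 and −0.0552 with EPZ5676, MI-2-2 and iBET without DMSO replicate 2, and −0.627, −0.503 and −0.446 without DMSO replicate 1. The 9 with EPZ5676 became 5 without DMSO replicate 2 and 3 without either EPZ5676 library. The 10 with MI-2-2 became 5 without DMSO replicate 2, 6 without either MM-401 library, 4 without MI-2-2 replicate 1 and 3 without MI-2-2 replicate 2. The 1 with iBET became 6 and 2 without DMSO replicates 1 and 2, and 0 without either iBET library. B4galt3 rose 2.13-fold with EPZ5676 (log2 fold change 1.09, edgeR adjusted p 0.00168), and Pfdn2 was 2.43-fold lower (−1.28, edgeR adjusted p 0.00851), in 2 of 2 libraries each, and both calls held without either DMSO library.

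With MM-401, 0 of the 103 tested genes on these 6 lists passed by edgeR, 21 reached p below 0.05 before adjustment, and by DESeq2 7 passed. The medians of the lists with MM-401 were 0.299 for kinases and adaptors, 0.209 for downstream enzymes, 0.228 for inhibitors, 0.194 for other Fc receptors, 0.592 for partner receptors and −0.313 for chromosome 1 neighbours. Those of other Fc receptors, partner receptors and neighbours became 0.348, 0.991 and −0.536 without DMSO replicate 1, and 0.0424, 0.503 and −0.0729 without DMSO replicate 2. Over the 6 lists EPZ5676 brought 61 of 103 genes past the threshold, MI-2-2 66 and iBET 22, where 38.1%, 41.4% and 13.9% of all genes passed. Without DMSO replicate 1 the MM-401 count became 20. The EPZ5676 count became 40 without EPZ5676 replicate 2, and the MI-2-2 count 42 without MI-2-2 replicate 2. The iBET count ran from 1 without iBET replicate 2 to 38 without DMSO replicate 1.

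Markers of myeloid cells that carry Fc receptors were summed as TMM CPM, since Fc receptor levels differ between cell types. The 13 neutrophil markers in the table, of 14 listed, summed to 3698 and 784 with DMSO, 4682 and 6092 with MM-401, 49811 and 68211 with EPZ5676, 45365 and 46491 with MI-2-2, and 1197 and 529 with iBET. S100a9 was the most abundant with EPZ5676 and MI-2-2, and S100a8 in the other 6 libraries. As for Fcgr4, the sums were highest with EPZ5676 and MI-2-2 and lowest on average with iBET. Within DMSO they did not follow Fcgr4, which stood at 22.9 and 22.7 TMM CPM. Cebpe is on this list, but it was picked as most like Fcgr4 in these same libraries, so its place here is no separate result. All 13 were higher with EPZ5676 and with MI-2-2, and 3 (Camp, Ngp and Cebpe) were lower with iBET. The changes with MM-401 and iBET depended on the DMSO library kept. With MM-401 the log2 fold change of S100a9 was 3.38 without DMSO replicate 1 and 0.41 without DMSO replicate 2. That of Mmp8 was −0.82 and 0.92. Without DMSO replicate 1, iBET values were positive for S100a8 (0.63), S100a9 (0.90), Lcn2 (0.68), Cxcr2 (0.38), Retnlg (0.47) and Fpr1 (3.11). They were negative for Camp (−3.69), Ngp (−1.24), Cebpe (−2.09), Ltf (−0.36), Csf3r (−0.44), Mmp9 (−0.97) and Mmp8 (−0.40). The sum of DMSO replicate 1 lay above both iBET sums, and that of DMSO replicate 2 between them. Every library with EPZ5676 or MI-2-2 lay above both DMSO libraries in all 13. The 16 macrophage and monocyte markers summed to 2606 and 1803 with DMSO, 3075 and 3164 with MM-401, 7061 and 9898 with EPZ5676, 7048 and 9156 with MI-2-2, and 2532 and 2954 with iBET. Lyz2 was the most abundant with EPZ5676 and MI-2-2, and Ly6c2 in the other 6 libraries. Of these 16, 14 were higher with EPZ5676 and 15 with MI-2-2, and with iBET 2 were higher and 1 lower, with median log2 fold changes of 3.27, 3.13 and 0.228. MM-401 gave 6 higher and iBET 4 without DMSO replicate 1, where the iBET median was 0.671. The 14 myeloid progenitor markers summed to 11107 and 14851 with DMSO, 12109 and 12506 with MM-401, 4636 and 4795 with EPZ5676, 4305 and 3551 with MI-2-2, and 8469 and 7457 with iBET. A few abundant genes weigh most in these sums, with Ctsg the highest with iBET, Mpo in DMSO replicate 2 and Elane in the other 7 libraries. Of the 14, 7 were lower with EPZ5676 and 8 with MI-2-2, with 2 higher in each (Spi1 and Csf2rb), and with iBET 2 were lower (Mpo and Elane) and 1 higher (Csf2rb), with medians of −1.51, −1.66 and 0.0129. With iBET 4 were higher and 4 lower without DMSO replicate 1, with a median of −0.231, and without DMSO replicate 2 the 1 higher was Flt3, with a median of 0.178. The EPZ5676 median was −0.916 without DMSO replicate 2. With both DMSO libraries 38.1%, 41.4% and 13.9% of all genes passed in these comparisons. The part of these cell types in the Fc receptor results was not tested.

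The mast cell and basophil markers, whose cells carry the receptor of Fcer1a, were low. Of 15 listed, 4 were tested, and Cma1, Tpsab1, Tpsb2, Prss34, Mcpt1 and Mcpt2 had no reads. They summed to 35.6 and 133 TMM CPM with DMSO, 48.0 and 54.5 with MM-401, 27.2 and 35.7 with EPZ5676, 23.8 and 24.4 with MI-2-2, and 23.4 and 24.9 with iBET, with Hdc the most abundant in all but iBET, where Mcpt8 was. Eosinophil markers (3 of 9 tested), led by Siglec5, summed to 0.918 to 37 TMM CPM, and Ear1 had no reads. Dendritic cell markers (5 of 12 tested), led by Cd74 in 8 of 10 libraries, summed to 1.6 to 21.1 TMM CPM. B cell markers (4 of 11 tested) reached 38.5 in DMSO replicate 2, of which Igll1 made up 34.4, and at most 15.8 elsewhere, and Ms4a1 and Pax5 had no reads. Fcgr2b, which B cells also carry, stood at 180 TMM CPM in that library against 154 in the other DMSO library, 1.17-fold apart. T and NK cell markers (2 of 12 tested), led by Lck in 9 of 10 libraries, reached at most 4.98 (Cd3e, Cd8a and Ncr1 at 0), erythroid and megakaryocyte markers (7 of 13), with Pf4 highest by their mean, 11.4, and stromal and endothelial markers (3 of 9), led by Col1a1 in 7 of 10 libraries, 22.1 (Col1a2 and Col3a1 at 0).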

How the data were processed

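Total RNA of MAF9 cells was sequenced by the submitters (RNeasy extraction, TruSeq libraries), with 2 libraries for each of 4 inhibitors and for DMSO. The deposited values are read counts per gene, 1 column per library and 24015 genes. The authors' processing notes name TopHat2, Subread and DESeq and the build mm9, without versions, roles or order, and do not give the gene annotation, the strand setting or the treatment of reads with several hits. The 7 Fc receptor genes were taken by symbol. The genes, gene lists and comparisons were chosen with earlier results of these data known.

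Depth ran from 20394762 to 29473127 reads per library, where 3 reads are 0.102 to 0.147 CPM. All 10 libraries were fitted in 1 model by edgeR 4.0.16 in R 4.3.3 (filterByExpr, TMM, quasi-likelihood F test, group means), which tested 12971 genes. The comparisons were each inhibitor against DMSO and the 6 pairs of inhibitors, with Benjamini-Hochberg adjustment within each and a threshold of 0.05. Standard errors are the log2 fold change over the root of F. The fit was tested on simulated counts first. Levels per kilobase use the exon length of the RefSeq annotation.

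Alternatives were scaling by total reads or by DESeq2 size factors, the Wald test of DESeq2 1.42.0, no filter, a mean of at least 1 CPM, a fit of only the 2 groups compared, the replicate number as a block, a 2-fold rule on mean CPM (0.1 CPM added, at least 1 CPM in either group), each library left out in turn and, for ratios, counts with no length. The longest protein-coding transcript as the length was chosen after seeing the data. Genes named are the Fc receptors, Lyn, Syk, Inpp5d, Ptpn6, B2m, Tyrobp and Ms4a2, the 4 of each list with the smallest adjusted p in any comparison with DMSO and the most abundant, the 3 most like each Fc receptor (at a mean of at least 5 TMM CPM, prior count 2), and any behind a list count of 5 or fewer. Marker lists cover 10 cell types. No column was left out. In the 2-fold rule no test is made.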

Additional observations from a re-analysis of the deposited data

How the results depend on the processing

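Fcgr4 and Fcer1g kept their calls with EPZ5676 and MI-2-2 in 18 of 18 alternatives. Scaling by total reads, scaling by DESeq2 size factors, no filter and the filter at 1 CPM left each of the 14 counts within 1.5 times its value. Of the 6 tested Fc receptor genes, the number called with MI-2-2 was 2 in a fit of only the 2 groups, and with iBET it was 4 by DESeq2, 0 in the fit of only the 2 groups and 4 by the 2-fold rule, which gave 1 with MM-401. Over the pairs of inhibitors the fits of only the 2 groups called 23 tests of these genes, against 16. The cause of these changes was not tested. It gave no value for Fcgr1 with iBET, which did not pass its filter.

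Among all genes, DESeq2 called 297 with MM-401 and 2829 with iBET. The 2-fold rule called 749 with MM-401, 3224 with EPZ5676 and 3311 with MI-2-2. Fits of only the 2 groups called 1147 with MI-2-2, 1174 with EPZ5676 and 0 with iBET (edgeR, where DESeq2 called 2829). Of the 103 list genes, DESeq2 called 7 with MM-401 and 39 with iBET, and the replicate block 42 with iBET. Fcgr2b reversed to −0.07 with EPZ5676 and −0.03 with MI-2-2, both under total reads and under the 2-fold rule.

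With the replicate number as a block, iBET gave 3088 genes, MI-2-2 6557, EPZ5676 6180 and MM-401 0, and Fcgrt passed with EPZ5676 (edgeR adjusted p 0.0144) and iBET (0.0142). The shift from replicate 1 to 2 correlated between groups at 0.278 to 0.666. Each group has 2 libraries and no batch is stated, so whether the libraries were paired cannot be told. The main fits leave this shared shift out, and the Fcgrt calls with EPZ5676 and iBET depend on that choice.

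Leaving out 1 library in turn, the Fc receptor genes called ranged from 0 to 1 with MM-401 and 1 to 4 with iBET, and over the pairs of inhibitors from 9 to 21. All genes called ranged from 0 to 1368 with MM-401, 2639 to 6808 with EPZ5676, 2772 to 7197 with MI-2-2, 150 to 3720 with iBET, and 11523 to 29588 over the pairs. The list genes ranged from 0 to 20 with MM-401, 40 to 73 with EPZ5676, 42 to 72 with MI-2-2 and 1 to 38 with iBET. Fcgr1 ranged from −2.44 to 5.09 on the log2 scale with MM-401, −0.57 to 7.0 with MI-2-2 and −5.30 to 2.24 with iBET, and changed sign within each of these ranges. Fcgr2b ranged from −0.05 to 0.15 with MM-401 and −0.07 to 0.26 with EPZ5676. Without DMSO replicate 1 or 2, Fcgr3 over Fcgr2b relative to DMSO moved by more than 1 SD with MM-401 (0.822 or 0.806). Fcgr4 over Fcgr2b did so with MI-2-2 (4.42 or 3.75) and iBET (0.284 or 0.241). With MM-401, Fcgr4 over Fcgr2b did so only without DMSO replicate 1 (1.48), as did Fcer1g over its receptors (1.65). Without DMSO replicate 2, Fcgr3 over Fcgr2b with MI-2-2 (1.45) and Fcer1g over its receptors with MM-401 (1.44) moved by less than 1 SD. With either other length these ratios moved by less than 1 SD, but the ratios themselves and the order of Fcgr4 and Fcgr2b depend on the length used. A depth of 3 reads, or 0.102 to 0.147 CPM, limits what Fcgr1 in DMSO replicate 1 and Fcer1a can show.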
